A study of Mus musculus with 12 samples.

Results

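Dystrophin, its relative utrophin and the membrane proteins that hold them form the dystrophin and sarcoglycan complex, which was followed here through 8 genes: dystrophin (Dmd), utrophin (Utrn), dystroglycan (Dag1), the sarcoglycans Sgca, Sgcb, Sgcd and Sgce, and sarcospan (Sspn). The members were every probe set of the array whose only gene symbol in the platform annotation was one of these. That gave 20 probe sets, of 34945 probe sets with 1 symbol covering 18193 genes. The rule uses no measured value. The 16 probe sets of 7 genes that were bright enough entered the tests, and 4 did not: 2 of Dmd, 1 of Sgce and the only probe set of Sgcd.

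The complex runs from the actin cytoskeleton to the basement membrane. Dystrophin, or utrophin in its place, binds actin inside the cell and dystroglycan in the membrane, and dystroglycan binds laminin and other matrix proteins through its sugar chains. The sarcoglycans and sarcospan form a subcomplex that steadies this link. In striated muscle the subcomplex holds alpha-sarcoglycan (Sgca), whereas in smooth muscle epsilon-sarcoglycan (Sgce) commonly takes its place beside beta- and delta-sarcoglycan (Sgcb and Sgcd). The wall of the bladder is largely smooth muscle, the detrusor.

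The study asked what transgene expression does to the bladder's expression profile, and hybridised RNA of entire bladders from 1-day-old FVB/N mice (postnatal day 1) to 12 one-colour Affymetrix mouse arrays. SMGA/EGFP mice, on 3 arrays, carried EGFP behind the promoter of Actg2, smooth muscle gamma actin. SMAA/EYFP mice, also on 3 arrays, carried EYFP behind that of Acta2, smooth muscle alpha actin. The remaining 6 arrays held wild-type bladders without a transgene. Both promoters belong to smooth muscle actin genes, and the tissue was profiled whole; where the reporters were made was not measured here. FVB/N females had been mated to transgenic males, all animals are labelled male, and no sample was pooled. The labels do not say which animals were littermates, so p-values measure the spread between these samples only.

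Median intensity per array lay between 229.4 and 305.9, and 8.35% to 10.6% of the values on an array lay below 16 intensity units. All 13 smooth muscle markers examined, among them Acta2, Actg2 and Myh11, were bright enough to be tested, as were all 8 urothelium markers. The following facts about the arrays touch the results below. The record numbers in the labels fall into 2 consecutive runs, the first with SMGA/EGFP 1 to 3 and wild type 1 to 3, the second with SMAA/EYFP 1 to 3 and wild type 4 to 6. What the runs stand for is not stated in the labels. The array labelled wild type 4 also went against its label of male: it read 29600 intensity units for Xist, the RNA that coats the inactive X chromosome, against 80.07 to 250.4 on the other 11 arrays, and 26.73 for the Y-linked gene Eif2s3y, against 3284 to 5096 on the others.

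Promoter sequences are shown for Dmd, Sgca and Sgcb, whose levels varied together from array to array (below), and for Dag1, whose correlations with them lay below 0. They come from RefSeq on the C57BL/6J reference assembly GRCm38.p6, not from the FVB/N strain, and run from 250 bases before to 50 bases after an annotated start. Capitals mark matches, on either strand, to the CArG box, which serum response factor binds in many smooth muscle genes, and to the E box, written CANNTG. RefSeq gives 2 starts and so 2 windows for Dmd and for Dag1. The Dmd window printed is the one with a CArG box, chosen after the motif search, and the Dag1 window printed is the upstream one on its strand. The printed Dmd window lies at chrX:82948620-82948919 on the plus strand, the Sgca window at chr11:94976278-94976577, the Sgcb window at chr5:73647688-73647987 and the Dag1 window at chr9:108263909-108264208, the last 3 on the minus strand.
Dmd: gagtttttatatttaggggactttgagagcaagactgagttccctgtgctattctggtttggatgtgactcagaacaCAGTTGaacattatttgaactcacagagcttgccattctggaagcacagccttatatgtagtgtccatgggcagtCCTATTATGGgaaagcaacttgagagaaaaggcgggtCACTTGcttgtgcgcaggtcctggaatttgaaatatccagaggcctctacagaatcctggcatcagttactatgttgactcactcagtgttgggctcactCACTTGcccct
Sgca: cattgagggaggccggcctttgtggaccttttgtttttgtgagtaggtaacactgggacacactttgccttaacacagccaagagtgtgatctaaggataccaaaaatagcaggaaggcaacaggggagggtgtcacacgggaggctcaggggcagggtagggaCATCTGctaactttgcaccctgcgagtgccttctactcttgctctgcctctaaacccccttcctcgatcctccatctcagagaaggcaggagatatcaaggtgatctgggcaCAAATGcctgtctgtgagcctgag
Sgcb: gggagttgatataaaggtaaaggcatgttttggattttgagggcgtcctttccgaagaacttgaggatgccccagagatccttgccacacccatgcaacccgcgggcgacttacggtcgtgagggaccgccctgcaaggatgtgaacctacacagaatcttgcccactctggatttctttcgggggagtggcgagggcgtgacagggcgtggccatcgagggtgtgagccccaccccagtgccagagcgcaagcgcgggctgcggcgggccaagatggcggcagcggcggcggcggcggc
Dag1: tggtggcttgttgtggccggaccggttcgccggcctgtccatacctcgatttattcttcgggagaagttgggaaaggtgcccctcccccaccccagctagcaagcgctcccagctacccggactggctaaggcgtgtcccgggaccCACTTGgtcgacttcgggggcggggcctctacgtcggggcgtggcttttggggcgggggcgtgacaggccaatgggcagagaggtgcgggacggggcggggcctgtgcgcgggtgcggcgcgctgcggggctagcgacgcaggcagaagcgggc
The printed Dmd window held a CArG box, CCTATTATGG, that begins 98 bases before the start, and 3 E boxes. The Sgca window held 2 E boxes, the Dag1 window 1 and the Sgcb window 0. No CArG box lay in the Sgca, Sgcb and Dag1 windows. A CArG box was found in 1.63% of all 32851 promoter windows of this length and an E box in 72.3%. The GC box, GGGCGG on either strand and not capitalised, occurred 3 times in the Dag1 window and 1 time in the Sgcb window, and in 35.7% of all windows. The second Dmd window, at chrX:85048045-85048344 on the plus strand, held 0 CArG boxes, 0 E boxes and 3 GC boxes. The second Dag1 window, at chr9:108263766-108264065, overlaps the first and held 0 CArG boxes, 1 E box and 4 GC boxes. These matches describe the letters of the reference and are not measured binding sites. RefSeq windows were found for 7 of the 8 members, Sgce being the gene without a match.

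No member probe set differed between groups past the threshold. Between SMGA/EGFP and wild type, 0 of the 16 passed an adjusted p of 0.05 (limma, Benjamini-Hochberg over 22518 probe sets), where 14 of all tested probe sets passed (0.0622%). Between SMAA/EYFP and wild type 0 of 16 members passed, with 0 of all tested (0.0%). Between SMGA/EGFP and SMAA/EYFP 0 of 16 members passed, with 18 of all tested (0.0799%), and in both transgenic groups together against wild type 0 of 16, with 1 of all tested (0.00444%). At an unadjusted p under 0.05 the members numbered 2, 2, 1 and 2 of 16 in these comparisons, in the same order, against 6.92%, 4.81%, 9.31% and 4.18% of all tested probe sets. They were Dag1 1426778_at and 1456131_x_at in the first and the last, Dag1 1426779_x_at and Sspn 1417644_at in the second and Sgcb 1436678_at in the third. The comparisons share arrays and are therefore not independent of each other. The smallest adjusted p of any member in any comparison was 0.514.

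Taken without sign, the members' differences had a median size of 0.13 in SMGA/EGFP against wild type, beside 0.13 over all tested probe sets. The median size was 0.19 in SMAA/EYFP against wild type, beside 0.11 over all tested probe sets. It was 0.10 beside 0.16 between the transgenic groups, and 0.15 beside 0.09 in both transgenic groups against wild type. With sign, the members' differences ran from -0.24 to 0.25 on the log2 scale for SMGA/EGFP against wild type. Their median was 0.03 beside -0.01 over all tested probe sets. For SMAA/EYFP against wild type they ran from -0.35 to 0.58, with a median of -0.06 beside 0.0. No member separated either transgenic group from wild type without overlap, which 2.72% (SMGA/EGFP) and 2.99% (SMAA/EYFP) of all tested probe sets did. Over the 12 arrays the median SD of a member probe set was 0.23 on the log2 scale, beside 0.24 over all tested probe sets. Since whole bladders were used, fewer cells of a type and less RNA per cell cannot be told apart in any of these values. The number of arrays limits the precision, and the intervals given with each gene say which differences the data leave room for.

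**Figure D1:**
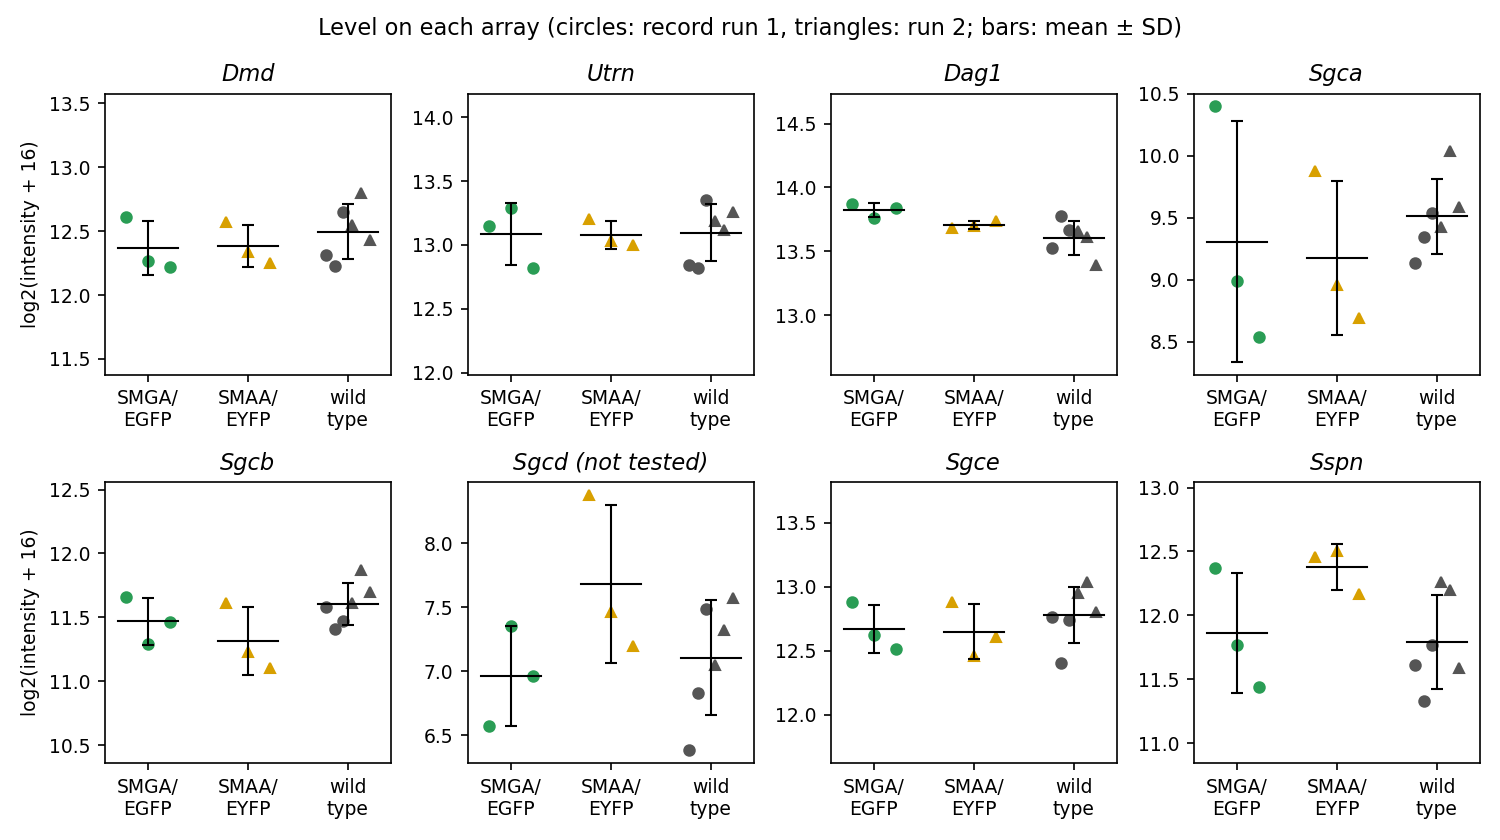
Level of each member's brightest probe set, log2(intensity + 16) after quantile normalization, on every array (points; circles for the first record run, triangles for the second), with the group mean and SD as bars; each panel has its own vertical range, so levels are not comparable between genes. The groups overlap in every panel in the comparison of either transgenic group with wild type, and among the tested genes Sgca spreads most widely, from 8.54 to 10.40.

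Dystrophin itself, encoded on the X chromosome, did not differ between the groups beyond the spread of the arrays. Its brightest probe set, 1417307_at, had intensities of 6057, 4934 and 4845 in SMGA/EGFP bladders, 6128, 5175 and 4847 in SMAA/EYFP bladders, and a lowest of 4788, a median of 5739 and a highest of 7129 in wild-type bladders. The 3 groups overlapped, and the highest array was wild type 5. On the log2 scale the means were 12.37 ± 0.22 (SD, n = 3) in SMGA/EGFP, 12.38 ± 0.17 (SD, n = 3) in SMAA/EYFP and 12.49 ± 0.21 (SD, n = 6) in wild type. SMGA/EGFP differed from wild type by -0.13 ± 0.14 (SE; limma adjusted p = 0.848), a fold of 0.92 with a 95% interval from 0.75 to 1.12. SMAA/EYFP differed from wild type by -0.11 ± 0.14 (SE; limma adjusted p = 0.994), a fold of 0.93 with an interval from 0.76 to 1.13.

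The second tested probe set of Dmd, 1448665_at, correlated with the first at r = 0.85 over the 12 arrays. Its differences were -0.20 ± 0.16 (SE; limma adjusted p = 0.801) in SMGA/EGFP against wild type and -0.20 ± 0.16 (SE; limma adjusted p = 0.991) in SMAA/EYFP against wild type. Because Dmd is X-linked and the array labelled wild type 4 went against its label, the differences were also taken without it. They were then -0.12 ± 0.15 and -0.10 ± 0.15 (SE) for 1417307_at and -0.19 ± 0.17 and -0.19 ± 0.17 (SE) for 1448665_at, SMGA/EGFP first and SMAA/EYFP second, each against 5 wild-type arrays. The dim Dmd probe sets 1443315_at and 1430320_at had intensities of at most 233.3 and 104.4 on any array, and neither passed in the fit without a filter.

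Utrophin, the autosomal relative that can stand in for dystrophin, was measured by 3 tested probe sets that did not vary alike. The brightest, 1452222_at, read 8793, 10025 and 7267 in SMGA/EGFP bladders, 9497, 8390 and 8190 in SMAA/EYFP bladders, and a lowest of 7155, a median of 9110 and a highest of 10730 in wild-type bladders. Its groups overlapped throughout. The difference from wild type was -0.01 ± 0.13 (SE; limma adjusted p = 0.992) in SMGA/EGFP, with a fold interval from 0.82 to 1.21, and -0.02 ± 0.13 (SE; limma adjusted p = 0.998) in SMAA/EYFP, with a fold interval from 0.81 to 1.20.

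Against this probe set, 1426892_at correlated at r = -0.36 over the 12 arrays and 1427569_a_at at r = 0.61, so what the array says of Utrn depends on the probe set read. For 1426892_at the intensities were 882, 705.8 and 841.3 in SMGA/EGFP bladders and 384.6, 696.7 and 689 in SMAA/EYFP bladders. All 3 SMGA/EGFP arrays lay above all 3 SMAA/EYFP arrays. The difference was 0.39 ± 0.24 (SE; limma adjusted p = 0.632), and it was 0.16 without SMAA/EYFP 1, the lowest array. The wild-type bladders ran from 485.3 to 1018 with a median of 666.9 and overlapped both transgenic groups.

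Dystroglycan, the laminin receptor at the core of the complex, was the steadiest gene of the set and lay slightly higher in both transgenic groups, short of the threshold. Its brightest probe set, 1426778_at, read 14871, 13837 and 14422 in SMGA/EGFP bladders, 13447, 13246 and 13663 in SMAA/EYFP bladders, and a lowest of 11061, a median of 12612 and a highest of 13852 in wild-type bladders. After normalization all 3 SMGA/EGFP arrays lay above all 3 SMAA/EYFP arrays, while wild type 2 reached into the range of SMGA/EGFP. The log2 means were 13.83 ± 0.06 (SD, n = 3), 13.71 ± 0.03 (SD, n = 3) and 13.61 ± 0.13 (SD, n = 6) in SMGA/EGFP, SMAA/EYFP and wild type. SMGA/EGFP differed from wild type by 0.22 ± 0.08 (SE; limma adjusted p = 0.709), a fold of 1.16 with an interval from 1.03 to 1.31. SMAA/EYFP differed from wild type by 0.10 ± 0.08 (SE; limma adjusted p = 0.991), a fold of 1.07 with an interval from 0.95 to 1.20.

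All 4 Dag1 probe sets gave a difference above 0 in both comparisons with wild type, between 0.02 and 0.25 in SMGA/EGFP and between 0.10 and 0.23 in SMAA/EYFP, except that the lowest of these, 1426779_x_at in SMGA/EGFP, turned to -0.07 with arrays centred on their median and to -0.01 with the record run as a block. Single arrays weighed on the values in SMAA/EYFP: 1426779_x_at gave 0.11 in place of 0.23 without SMAA/EYFP 3, and 1426778_at gave 0.06 in place of 0.10 without wild type 6. The probe sets measure the same gene and are not replicates of one another. The largest value, 0.25 ± 0.11 (SE; limma adjusted p = 0.712), came from 1456131_x_at in SMGA/EGFP. With the record run as a block, 1426778_at differed by 0.16 ± 0.09 (SE) in SMGA/EGFP and by 0.15 ± 0.09 (SE) in SMAA/EYFP. Apart from 1426779_x_at, the probe sets varied alike over the arrays (r from 0.72 to 0.86), and 1426779_x_at varied less closely with them (r from 0.33 to 0.52).

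Alpha-sarcoglycan (Sgca), the subunit typical of striated muscle, had the widest spread among the members and 1 probe set, 1422654_at. Its intensities were 1369, 490.6 and 357.4 in SMGA/EGFP bladders, 875.4, 478.9 and 392.6 in SMAA/EYFP bladders, and a lowest of 594.6, a median of 688.6 and a highest of 1022 in wild-type bladders. Of each transgenic group 2 arrays lay below every wild-type array, whereas SMGA/EGFP 1 lay above all 6 and SMAA/EYFP 1 above 5 of the 6. The log2 SD was 0.97 in SMGA/EGFP (n = 3), 0.63 in SMAA/EYFP (n = 3) and 0.30 in wild type (n = 6). The difference from wild type was -0.20 ± 0.35 (SE; limma adjusted p = 0.913) in SMGA/EGFP, a fold of 0.87 with an interval from 0.51 to 1.47. In SMAA/EYFP it was -0.34 ± 0.35 (SE; limma adjusted p = 0.994), a fold of 0.79 with an interval from 0.47 to 1.34. A single array set the value in SMGA/EGFP: it was -0.76 without SMGA/EGFP 1 and 0.18 without SMGA/EGFP 3. In SMAA/EYFP it was -0.69 without SMAA/EYFP 1 and -0.09 without SMAA/EYFP 3.

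Epsilon-sarcoglycan (Sgce), the counterpart of alpha in smooth muscle, was steadier than Sgca on its bright probe set only. The log2 SD over the 12 arrays was 0.20 there, at a mean of 12.72, beside 0.55 at a mean of 9.38 for Sgca. On the dim Sgce probe set it was 0.54, at a mean of 7.48. The part of brightness in this contrast was not tested. The bright probe set of Sgce, 1420688_a_at, read 7313, 6312 and 5840 in SMGA/EGFP bladders and 7574, 5631 and 6208 in SMAA/EYFP bladders. In wild-type bladders it had a lowest of 5362, a median of 7007 and a highest of 8453. The groups overlapped. SMGA/EGFP differed from wild type by -0.11 ± 0.14 (SE; limma adjusted p = 0.861), with a fold interval from 0.75 to 1.13, and SMAA/EYFP by -0.13 ± 0.14 (SE; limma adjusted p = 0.994), with a fold interval from 0.74 to 1.12. Within wild type, its log2 levels were 12.76, 12.40 and 12.74 in the first record run and 12.95, 13.04 and 12.80 in the second. The runs did not overlap, which also held for Sgcb 1419668_at. The share of all probe sets without overlap between these runs was not counted. With the record run as a block the differences were 0.03 ± 0.14 (SE) in SMGA/EGFP and -0.28 ± 0.14 (SE) in SMAA/EYFP. The dim Sgce probe set, 1443518_at, ran from 66.54 to 368.5 over the 12 arrays. In the fit without a filter it differed by 0.92 ± 0.38 (SE; limma adjusted p = 0.625) in SMGA/EGFP against SMAA/EYFP.

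Beta-sarcoglycan (Sgcb), a subunit of the complex in both kinds of muscle, had 3 tested probe sets. The brightest, 1419668_at, read 3156, 2495 and 2851 in SMGA/EGFP bladders, 3089, 2412 and 2195 in SMAA/EYFP bladders, and a lowest of 2731, a median of 3091 and a highest of 3746 in wild-type bladders. In all, 2 of the 3 SMAA/EYFP arrays lay below every wild-type array, and so did SMGA/EGFP 2. SMAA/EYFP differed from wild type by -0.29 ± 0.14 (SE; limma adjusted p = 0.991), a fold of 0.82 with an interval from 0.66 to 1.00. With the record run as a block it differed by -0.42 ± 0.15 (SE; limma adjusted p = 0.967). SMGA/EGFP differed from wild type by -0.13 ± 0.14 (SE; limma adjusted p = 0.844), with a fold interval from 0.74 to 1.12.

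The probe set 1436678_at of the same gene gave the smallest adjusted p of all members. It read 741.2, 535.2 and 609.5 in SMGA/EGFP bladders and 328.6, 418 and 508.1 in SMAA/EYFP bladders. Every SMGA/EGFP array lay above every SMAA/EYFP array, and the difference was 0.47 ± 0.20 (SE; limma adjusted p = 0.514), a fold of 1.39 with an interval from 1.02 to 1.87. The other Sgcb probe sets gave 0.16 ± 0.16 (1419668_at) and -0.08 ± 0.21 (1419667_at; both SE) in that comparison. Over the arrays 1436678_at correlated with them at r = 0.32 and r = -0.18, and they correlated with each other at r = 0.75.

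Delta-sarcoglycan (Sgcd) was represented by 1450805_at alone, which was too dim for the tests. It read 94.64, 145.8 and 100.9 in SMGA/EGFP bladders, 288.2, 150.5 and 135 in SMAA/EYFP bladders, and a lowest of 68.49, a median of 130.3 and a highest of 162.4 in wild-type bladders. SMAA/EYFP 1 stood above all other arrays, and the groups otherwise overlapped. In the fit without a filter the differences from wild type were -0.15 ± 0.35 (SE; limma adjusted p = 0.972) in SMGA/EGFP and 0.57 ± 0.35 (SE; limma adjusted p = 0.996) in SMAA/EYFP. A dim probe set does not show that a gene's RNA is scarce.

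Sarcospan (Sspn), the small tetraspanning partner of the sarcoglycans, had the largest difference among the tested members. Its brightest probe set, 1417644_at, read 5651, 5799 and 4634 in SMAA/EYFP bladders, and a lowest of 2589, a median of 3276 and a highest of 4883 in wild-type bladders. Of the SMAA/EYFP arrays 2 lay above all wild-type arrays and the third below wild type 4 and wild type 5. SMAA/EYFP differed from wild type by 0.58 ± 0.22 (SE; limma adjusted p = 0.991), with a fold interval from 1.08 to 2.08. With the record run as a block, which sets SMAA/EYFP against wild type 4 to 6, it differed by 0.36 ± 0.23 (SE; limma adjusted p = 0.967). The second probe set, 1417645_at, correlated with the first at r = 0.80 and gave 0.19 ± 0.30 (SE; limma adjusted p = 0.994) in the same comparison and -0.07 ± 0.33 (SE) with the block.

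In SMGA/EGFP bladders 1417644_at read 5091, 3497 and 2797, inside and just above the wild-type range, and differed from wild type by 0.07 ± 0.22 (SE; limma adjusted p = 0.960). Among the marker lists, that of the mesothelium moved between the transgenic groups: its 6 genes summed to 15469 to 16972 intensity units in SMGA/EGFP, 26566 to 35459 in SMAA/EYFP and 17676 to 27332 in wild type. The mesothelium score correlated with Sspn at r = 0.44 over the 12 arrays, and its part in the Sspn difference was not tested. Of the 6 nearest genes to Sspn in the RefSeq table, 4 were tested and none passed. Their differences of SMAA/EYFP against wild type were -0.01 ± 0.12 (Rassf8), -0.26 ± 0.17 (Itpr2), 0.02 ± 0.19 (Ints13) and -0.11 ± 0.08 (Fgfr1op2; all SE).

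**Figure D2:**
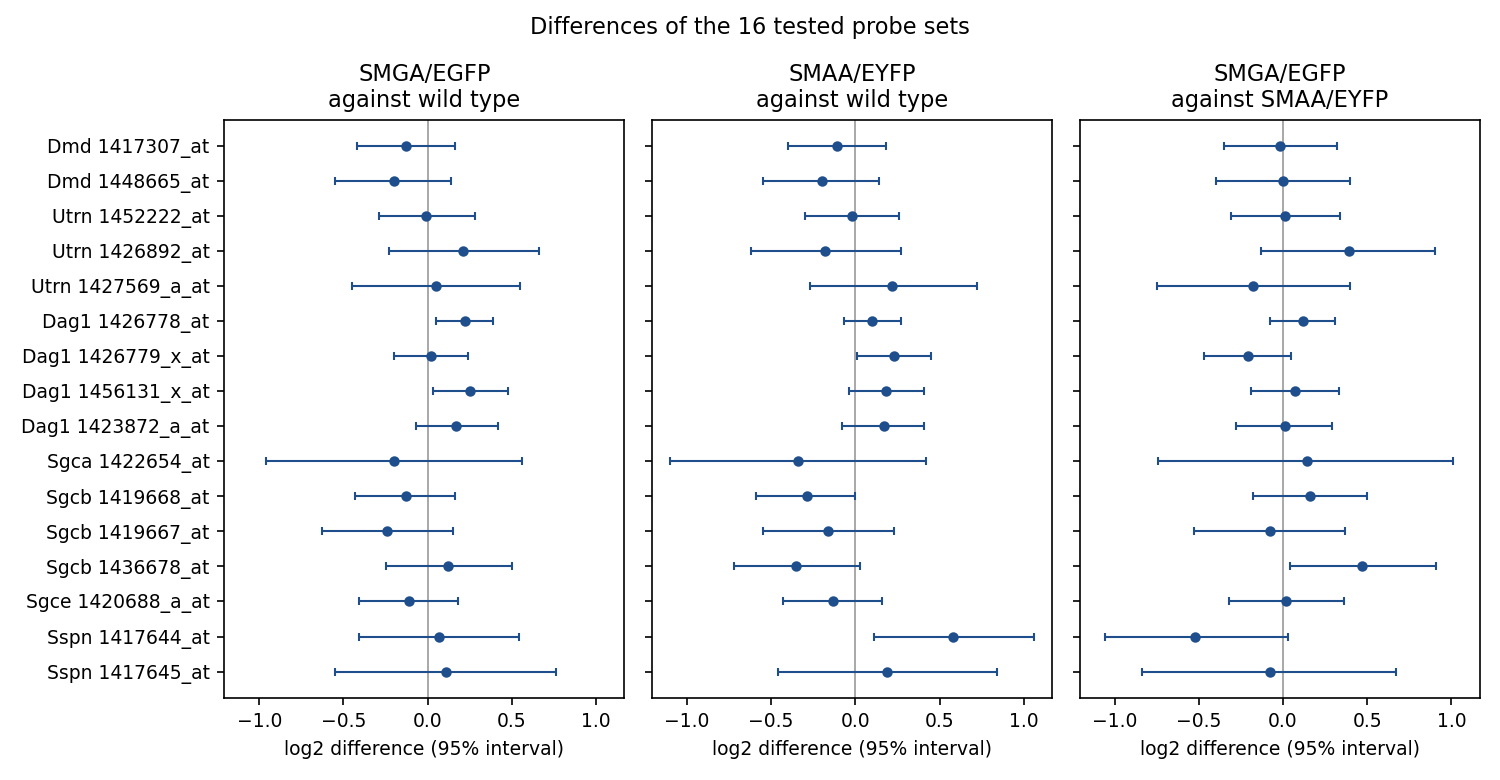
Log2 difference (points) and 95% interval (bars) of the 16 tested member probe sets in 3 comparisons (SMGA/EGFP with wild type on the left, SMAA/EYFP with wild type in the middle, SMGA/EGFP with SMAA/EYFP on the right), on a common axis, positive values being higher in the group named first. Most intervals include 0, none of the differences passed after adjustment, and the widest intervals are those of Sgca, while Dag1 has the narrowest.

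Between the transgenic groups the members' differences ran from -0.52 to 0.47, with a median of 0.01 beside -0.02 over all tested probe sets. Without overlap, 3 of 16 members lay higher in SMGA/EGFP than in SMAA/EYFP, namely Utrn 1426892_at, Dag1 1426778_at and Sgcb 1436678_at, which is 18.8% beside 14.5% of all tested probe sets (6.48% counted in this direction). The Dag1 difference was 0.12 ± 0.09 (SE; limma adjusted p = 0.697), and it turned to -0.03 with arrays centred on their median, a scaling that moved the median of all tested probe sets to -0.12. Since the record runs coincide with these groups, the comparison can be made within runs only through the wild-type arrays of each. The block gave 0.06 ± 0.32 for Utrn 1426892_at, 0.01 ± 0.13 for Dag1 1426778_at and 0.69 ± 0.28 (SE; limma adjusted p = 1.0) for Sgcb 1436678_at. In the same comparison Sspn 1417644_at differed by -0.52 ± 0.25 (SE; limma adjusted p = 0.557), and by -0.07 ± 0.33 (SE) with the block.

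Part of the array-to-array variation was shared between members. Over the 12 arrays the brightest probe set of Dmd correlated with Sgce at r = 0.84, with Sgca at r = 0.83 and with Sgcb at r = 0.72. Among the sarcoglycans, Sgcb correlated with Sgce at r = 0.78 and with Sgca at r = 0.75, and Sgca with Sgce at r = 0.72. With each group centred on its own mean, the correlations of Dmd with Sgce, Sgca and Sgcb were 0.83, 0.82 and 0.73. Without the 2 arrays farthest from the median of Dmd they were 0.86, 0.86 and 0.68 over 10 arrays. Which arrays are left out matters: without the 2 farthest from the median of Sgcb, its correlation with Dmd was 0.54. These are descriptions of 12 arrays that were normalized together and each hold a whole bladder.

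Other members followed that group less closely over the 12 arrays, or not at all. Dag1 correlated with Dmd, Sgca, Sgcb and Sgce at r = -0.19, -0.11, -0.39 and -0.37. Without the 2 arrays farthest from the median of Dag1 these were -0.54, -0.54, -0.52 and -0.66, and its correlation with the urothelium score was 0.71 in place of 0.39. Utrn correlated with Dmd at r = 0.59 and with Sgcb at r = 0.21. Sspn correlated with Dmd at r = 0.50 over the 12 arrays and at 0.82 within groups, with Sgce at 0.44 and 0.79, and with Sgcb at 0.03 and 0.57. Without the 2 arrays farthest from the median of the gene named first, Utrn with Dmd gave 0.39, Sspn with Dmd 0.26 and Sspn with Sgce 0.07. With the 2 arrays farthest from the median of Dmd left out instead, Dmd gave 0.61 with Utrn and 0.65 with Sspn. How far Sspn stands from the group thus depends on the arrays used. The dim Sgcd correlated with Dmd at r = 0.28.

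**Figure D3:**
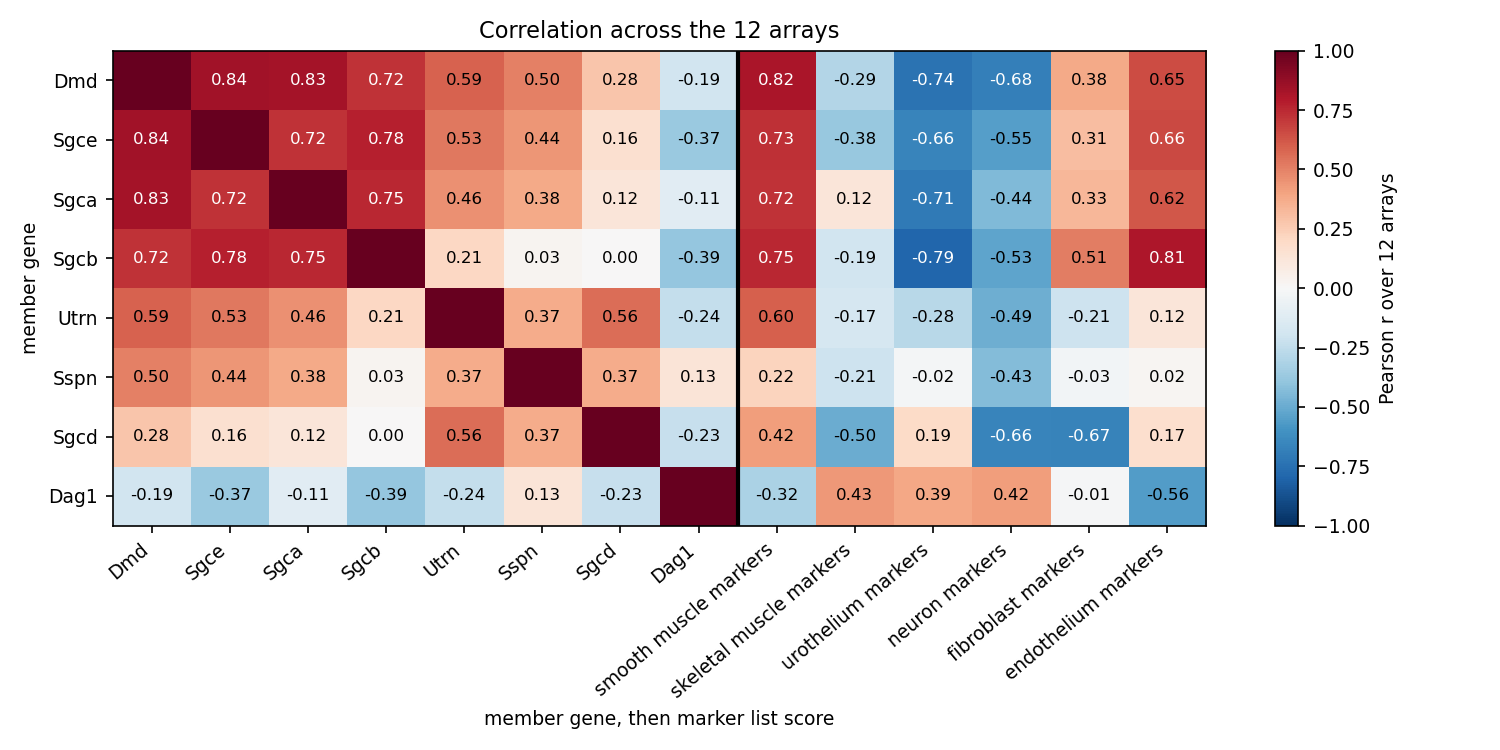
Pearson correlation over the 12 arrays between the members' brightest probe sets (rows and left columns) and with the scores of 6 marker lists (right columns), from blue (-1) through white (0) to red (1). Dmd, Sgce, Sgca and Sgcb form a block with values from 0.72 to 0.84, and Dag1 stands outside it. The block follows the smooth muscle score, but not that score alone. Sgcb correlated more with the endothelium score (0.81) than with the smooth muscle score (0.75). The cardiac and pericyte lists, which are not drawn, gave 0.90 and 0.74 for Sgca, beside 0.72 for smooth muscle.

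The array-to-array level of Dmd, Sgca, Sgcb and Sgce moved with markers of the tissue's cell types. The smooth muscle score was the mean log2 deviation of its 13 marker genes. It correlated with Dmd at r = 0.82, with Sgcb at 0.75, with Sgce at 0.73, with Sgca at 0.72 and with Utrn at 0.60, but with Sspn at 0.22 and with Dag1 at -0.32. These markers spread unequally. The SE of the SMGA/EGFP difference from wild type was 0.03 for Actg2 and 0.05 for Acta2 and Myh11, against 0.28 for Pln, 0.21 for Lmod1 and 0.2 for Des. Actg2, Acta2 and Myh11 therefore weigh little in the score. The marker genes summed to 406616 to 520922 intensity units in SMGA/EGFP, 395943 to 523412 in SMAA/EYFP and 418366 to 510320 in wild type, so the groups overlapped. The urothelium score (8 genes) ran the other way, with r = -0.74 for Dmd, -0.71 for Sgca, -0.79 for Sgcb and 0.39 for Dag1. Without the 2 arrays farthest from the median of each gene these were -0.5, -0.66, -0.58 and 0.71 over 10 arrays. Urothelium markers summed to 220277 to 250296 in SMGA/EGFP, 232889 to 274989 in SMAA/EYFP and 193056 to 247879 in wild type. Of the endothelium markers all 7 were tested and none passed. Their sums were 11959 to 15663 in SMGA/EGFP, 13406 to 18833 in SMAA/EYFP and 16651 to 19380 in wild type, so that SMGA/EGFP lay below wild type without overlap. Among single probe sets 2.72% of all tested did not overlap in that comparison, in either direction. For sums over lists no such share was counted. The endothelium score correlated with Sgcb at r = 0.81, with Dmd at 0.65 and with Dag1 at -0.56. For the pericyte score the values were 0.74 with Sgca, 0.59 with Dmd, 0.55 with Sgcb and 0.45 with Sgce. The 5 neuron markers with a probe set summed to 5491 to 10590 in SMGA/EGFP, 1033 to 7774 in SMAA/EYFP and 748 to 14669 in wild type. Their score correlated with Dmd at r = -0.68, and at -0.57 without the 2 arrays farthest from the median of Dmd. The dim Sgcd correlated with the smooth muscle score at r = 0.42, with the urothelium score at 0.19 and with the endothelium score at 0.17. The part that the mixture of cell types had in the members' levels was not tested.

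Skeletal muscle is the tissue in which the complex is best known, and its markers were examined too. Of 20 skeletal muscle markers 11 were bright enough to be tested, while the regulators Myod1 and Myog were not. The list summed to 82706 to 131299 intensity units in SMGA/EGFP, 86863 to 113215 in SMAA/EYFP and 91507 to 134547 in wild type. Acta1, at a mean log2 of 15.75, weighs most in these sums, followed by Tnnc2 at 13.46. The sums therefore do not measure how much skeletal muscle was present. The score of the skeletal muscle list correlated with Dmd at r = -0.29, with Sgca at 0.12, with Sgcb at -0.19 and with Sgce at -0.38. Without the 2 arrays farthest from the median of each gene these were -0.14, -0.37, -0.36 and -0.05 over 10 arrays, so the sign for Sgca turned. The score averages all 20 genes, those too dim to be tested included. The 11 tested genes spread unequally. The SE of the SMGA/EGFP difference from wild type was 1.43 for Myh3, 1.40 for Myl1 and 1.33 for Mylpf, against 0.06 to 0.50 for the other 8. Within the list, the calsequestrin gene Casq1 followed Sgca at r = 0.966. Casq1 came out of the search over 20089 probe sets described below, so its value is high by selection and does not stand for the list. The part of skeletal muscle in the level of Sgca was not tested. The cardiac list, of which 3 of 6 genes were tested, correlated with Sgca at r = 0.90 and with Dmd at 0.81. It summed to 82373 to 95671 intensity units in SMGA/EGFP, 80901 to 106822 in SMAA/EYFP and 84000 to 98457 in wild type. Its genes Myh6, Tnni3 and Nppa were too dim to be tested but are part of its score. Its sums rest mostly on Actc1 and Tnnt2, at mean log2 of 15.63 and 15.25, beside 10.4 for Myh7.

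**Figure D4:**
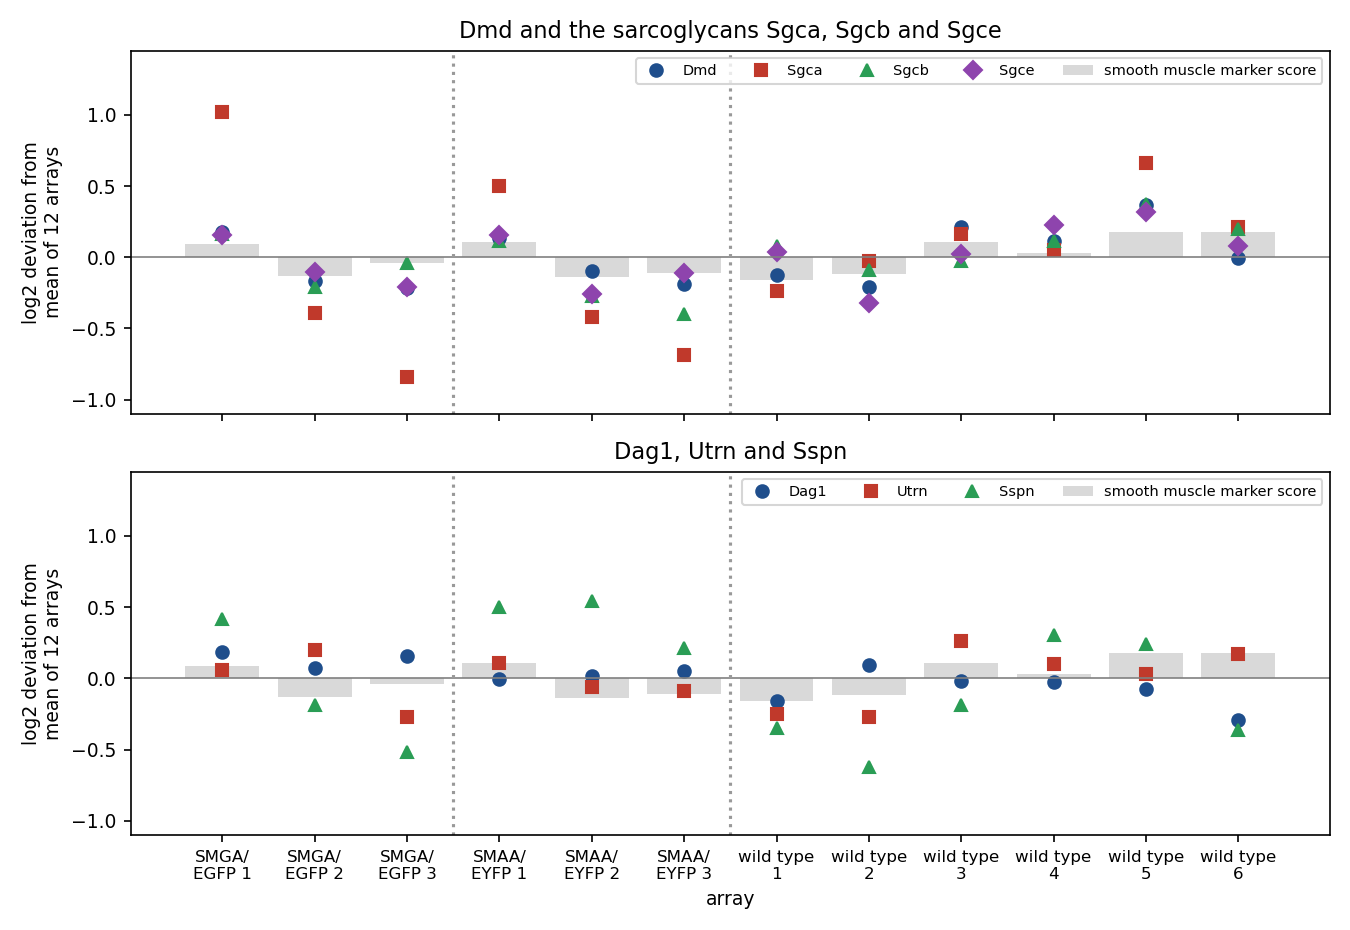
Deviation of each array from the mean of the 12 arrays (log2) for Dmd, Sgca, Sgcb and Sgce (top) and for Dag1, Utrn and Sspn (bottom), with the smooth muscle marker score as grey bars and dotted lines between SMGA/EGFP, SMAA/EYFP and wild type. In the top panel the 4 genes lie on the same side of 0 on most arrays, whereas those in the bottom panel scatter. All 4 are above 0 on SMGA/EGFP 1 and wild type 5, among others. They are all below 0 on SMGA/EGFP 2 and 3, SMAA/EYFP 2 and 3 and wild type 2.

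The genes whose pattern over the 12 arrays was most like each member were searched among 20089 tested probe sets with 1 symbol. For Dmd they were Adamtsl4 (r = 0.967), the small heat shock protein gene Hspb6 (0.961) and Arhgef25 (0.956). For Sgca they were Grn (0.967), Casq1 (0.966), which is on the skeletal muscle marker list, and the small heat shock protein gene Hspb8 (0.951). For Sgcb they were Dnajc18 (0.950), Oaz2 (0.944) and Serpinf1 (0.918). For Sgce they were Ifitm2 (0.922), Adamtsl1 (0.922) and Rora (0.916). For Dag1 they were Zbed6 (0.912), Rps15 (0.870) and Atp13a1 (0.854). For Utrn they were Acvrl1 (0.947), Cd99 (0.945) and Atcayos (0.934). For Sspn they were Kctd7 (0.910), Iqsec2 (0.901) and Anapc16 (0.878), and for Sgcd Mpv17l2 (0.952), Vsir (0.930) and Baiap2 (0.918). The highest of so many correlations over 12 arrays is high by selection.

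The wider pathway gave no call either. Of 63 further genes of the complex and its surroundings, 56 had a probe set, 52 were tested, and 0 passed in any comparison (limma, Benjamini-Hochberg over all probe sets tested). At an unadjusted p under 0.05 they numbered 4 between SMGA/EGFP and wild type, 1 between SMAA/EYFP and wild type, 8 in SMGA/EGFP against SMAA/EYFP and 0 in both transgenic groups against wild type, each of 52, where 6.92%, 4.81%, 9.31% and 4.18% of all tested probe sets lay under it. Their median differences were -0.03, -0.04, -0.01 and -0.03, in that order, beside -0.01, 0.0, -0.02 and -0.01 over all tested probe sets. The genes named from here on are those of smallest p in their list and comparison, and none passed.

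Matrix ligands of dystroglycan and their companions were 17 tested genes, with medians of 0.09 in SMGA/EGFP and -0.14 in SMAA/EYFP, both against wild type, and 0.17 in SMGA/EGFP against SMAA/EYFP. Pikachurin (Egflam), a dystroglycan ligand known from the photoreceptor synapse, differed by 0.52 ± 0.21 (SE; limma adjusted p = 0.712) in SMGA/EGFP against wild type and by 0.79 ± 0.24 (SE; limma adjusted p = 0.393) in SMGA/EGFP against SMAA/EYFP. The laminin alpha chain Lama2, a major muscle ligand, differed by 0.28 ± 0.12 and 0.42 ± 0.14 (SE) in the same comparisons, and Lama5 by 0.22 ± 0.13 (SE) in the first. The laminin beta chain Lamb2 differed by -0.35 ± 0.13 (SE; limma adjusted p = 0.991) in SMAA/EYFP against wild type and by 0.44 ± 0.15 (SE) in SMGA/EGFP against SMAA/EYFP. Lamc1 and Slit2 differed by -0.20 ± 0.10 and -0.30 ± 0.17 (SE) in SMAA/EYFP against wild type.

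Enzymes and donors of dystroglycan glycosylation were 13 tested genes, of which 12 lay below 0 in SMGA/EGFP against wild type with a median of -0.09. Over all tested probe sets 11914 of 22518 lay below 0 in that comparison. Some of the 12 genes were close to 0, such as Pomt2 and Pomk, each at -0.01. B3galnt2, which adds N-acetylgalactosamine to the O-mannose chain that becomes the laminin-binding sugar, differed by -0.48 ± 0.14 (SE; limma adjusted p = 0.611) in that comparison and by -0.71 ± 0.16 (SE; limma adjusted p = 0.256) in SMGA/EGFP against SMAA/EYFP. Pomgnt2, which acts before it on the same chain, differed by -0.26 ± 0.14 and -0.35 ± 0.16 (SE) there, and Srd5a3, which makes dolichol, by -0.17 ± 0.12 and -0.32 ± 0.13 (SE). In SMAA/EYFP against wild type the median was 0.01, with Pomt1 at -0.33 ± 0.23, B3galnt2 at 0.22 ± 0.14 and Srd5a3 at 0.15 ± 0.12 (all SE).

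Inside the cell, the 6 tested cytoplasmic partners had medians of 0.01 in SMGA/EGFP and 0.11 in SMAA/EYFP against wild type. With SMGA/EGFP set against wild type, neuronal nitric oxide synthase (Nos1), which syntrophins anchor to the complex, differed by 0.54 ± 0.36 (SE), alpha-dystrobrevin (Dtna) by -0.31 ± 0.31 (SE) and the syntrophin Sntg2 by -0.19 ± 0.27 (SE). The syntrophin Sntb1 in SMAA/EYFP against wild type gave 0.27 ± 0.23, Dtna 0.21 ± 0.31 and Nos1 0.16 ± 0.36 (all SE). The 6 tested genes of caveolae, the membrane pits that lie beside the complex in smooth muscle, had medians of -0.15 and -0.05. Their differences were -0.38 ± 0.31 for the muscle caveolin Cav3, -0.21 ± 0.20 for Cavin3 and -0.18 ± 0.11 for Cavin2 in SMGA/EGFP against wild type, and -0.30 ± 0.31 for Cav3, 0.16 ± 0.12 for Cav2 and -0.07 ± 0.11 for Cavin2 in SMAA/EYFP against wild type (all SE).

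Of the 9 other adhesion and membrane repair genes, medians were 0.0 in SMGA/EGFP and 0.01 in SMAA/EYFP against wild type. The ankyrin Ank3 differed by 0.25 ± 0.10 (SE; limma adjusted p = 0.712) in SMGA/EGFP against wild type and by 0.25 ± 0.11 (SE) in SMGA/EGFP against SMAA/EYFP. The ankyrin Ank2 gave 0.34 ± 0.31 (SE) and the intermediate filament gene Synm 0.05 ± 0.07 (SE) in SMGA/EGFP against wild type. Ank2 in SMAA/EYFP against wild type gave -0.37 ± 0.31, the membrane repair gene dysferlin (Dysf) -0.28 ± 0.28 and Krt19, a keratin of epithelium, 0.15 ± 0.13 (all SE). Dystrophin-related protein Drp2, the tested gene among other relatives, differed by -0.09 ± 0.21 and -0.27 ± 0.21 (SE) in SMGA/EGFP and SMAA/EYFP against wild type.

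Several members had unlike mean levels on the wild-type arrays of the 2 record runs, and the differences above depend on which wild-type arrays are used. The runs still overlapped for Dmd 1417307_at, Sgca, Sspn 1417644_at and Dag1 1426778_at. Whether the runs differ was not tested, and the share of all probe sets that shift as much was not counted. The wild-type log2 means of the first and second run were 12.40 and 12.59 for Dmd 1417307_at, 9.34 and 9.68 for Sgca, 11.49 and 11.73 for Sgcb 1419668_at, 12.63 and 12.93 for Sgce 1420688_a_at and 11.57 and 12.02 for Sspn 1417644_at. For Dag1 1426778_at they were 13.66 and 13.55. With the run as a block, which compares each transgenic group with the 3 wild-type arrays of its own run, Dmd 1417307_at differed by -0.03 ± 0.15 in SMGA/EGFP and by -0.21 ± 0.15 in SMAA/EYFP, and Sgca by -0.03 ± 0.41 and -0.51 ± 0.41 (all SE). With the block, 0 of 16 members passed in any comparison.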

How the data were processed

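The authors deposited linear intensity values for each probe set, produced with GCOS (version not given) per the submitters' processing notes; detection calls and scaling settings are not given in the sources used here. The values between the 2nd and 98th percentile averaged 1499.84 to 1500.01 on every array. From 45101 probe sets, 64 controls were left out. After adding 16 intensity units, log2 was taken and arrays were quantile-normalized. The 22518 probe sets with a mean above the median (log2 8.02) entered limma 3.58.1 under R 4.3.3 (lmFit, then eBayes with an intensity trend; two-sided tests) over all 12 arrays, with Benjamini-Hochberg adjustment and a threshold of 0.05. A log2 difference is on the log2(intensity + 16) scale and understates changes of dim genes. The fit was tested on simulated data.

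Gene symbols are those of the platform annotation held by GEO, brought up to date through a RefSeq table of GRCm38.p6 (0 changed); 932 probe sets had several symbols and 9160 none listed, and no gene was named from these. Each gene was represented by its brightest probe set on average. All members were named, with up to 3 genes of smallest p per pathway list and comparison, and the 3 most alike genes per member. The members, lists and marker genes were chosen with earlier results of these data known. The alternatives were other scalings, a pseudocount of 1 or of 64, a filter at the 25th or the 75th percentile or none, no trend, only the arrays compared, the record run, and each array left out.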

Additional observations from a re-analysis of the deposited data

Results flagged for a closer look

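No member probe set had an array that stood apart from its group by Dixon's ratio among the 20 wild-type groups of 6 arrays examined (critical ratio 0.625). Groups of 3 arrays were not examined in this way, so the high reading of Sgca on SMGA/EGFP 1 was not tested.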

How the results depend on the processing

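The 0 calls among the members held in all 4 comparisons under every alternative run, up to 23 in number; the smallest adjusted p was 0.333, for Sgcb 1436678_at in SMGA/EGFP against SMAA/EYFP without SMGA/EGFP 2. Of 1400 member differences under alternatives, 1321 kept their direction and 79 reversed, 78 of them with a reported size under 1 SE. The cause of the reversals was not tested. Counts over all probe sets were less stable. Between SMGA/EGFP and wild type the 14 calls became 5 with the filter at the 75th percentile, 8 when the fit held only the arrays compared, 1 when it held those of the record run alone and 6 to 20 with an array left out. Between SMAA/EYFP and wild type the 0 calls became 5 with arrays centred on their median. Between SMGA/EGFP and SMAA/EYFP the 18 became 10 with the filter at the 75th percentile, 2 with the record run as a block and 4 to 22 with an array left out. In both transgenic groups against wild type the 1 call became 0 with median centring. Centring on the median moved the median difference of all probe sets to -0.12 in SMGA/EGFP against SMAA/EYFP and turned the members' split from 9 higher and 7 lower into 4 higher and 12 lower.

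In SMGA/EGFP against wild type, the record run as a block, and equally only the arrays of that run, gave 0.09 for Utrn 1452222_at, -0.01 for Dag1 1426779_x_at and 0.03 for Sgce 1420688_a_at, and median centring gave -0.07 for Dag1 1426779_x_at and -0.02 for Sspn 1417644_at. In SMAA/EYFP against wild type, median centring gave 0.02 for Utrn 1452222_at, and the block and the run's arrays gave -0.07 for Sspn 1417645_at. In SMGA/EGFP against SMAA/EYFP, the block gave 0.17 for Dmd 1417307_at, 0.29 for Dmd 1448665_at, -0.10 for Dag1 1456131_x_at, -0.12 for Dag1 1423872_a_at, 0.20 for Sgcb 1419667_at and 0.43 for Sspn 1417645_at. There median centring gave -0.13 for Utrn 1452222_at, -0.03 for Dag1 1426778_at, -0.06 for Dag1 1456131_x_at, -0.13 for Dag1 1423872_a_at and -0.12 for Sgce 1420688_a_at, and the values as deposited gave -0.01 for Utrn 1452222_at and 0.0 for Dag1 1423872_a_at. In both transgenic groups against wild type, median centring gave 0.0 for Utrn 1426892_at.

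Leaving out 1 array at a time, differences that reversed ran as follows. In SMGA/EGFP against wild type the range was -0.11 to 0.13 for Utrn 1452222_at, -0.14 to 0.16 for Utrn 1427569_a_at, -0.02 to 0.04 for Dag1 1426779_x_at, -0.76 to 0.18 for Sgca 1422654_at, -0.19 to 0.28 for Sspn 1417644_at and -0.10 to 0.29 for Sspn 1417645_at. For SMAA/EYFP against wild type it was -0.08 to 0.03 for Utrn 1452222_at, -0.29 to 0.05 for Utrn 1426892_at and -0.01 to 0.33 for Sspn 1417645_at. For SMGA/EGFP against SMAA/EYFP it was -0.14 to 0.07 for Dmd 1417307_at, -0.11 to 0.09 for Dmd 1448665_at, -0.09 to 0.15 for Utrn 1452222_at, -0.06 to 0.10 for Dag1 1423872_a_at, -0.41 to 0.52 for Sgca 1422654_at, -0.21 to 0.10 for Sgcb 1419667_at, -0.09 to 0.13 for Sgce 1420688_a_at and -0.30 to 0.11 for Sspn 1417645_at. In both transgenic groups against wild type it was -0.07 to 0.05 for Utrn 1452222_at, -0.07 to 0.13 for Utrn 1426892_at and -0.01 to 0.29 for Sspn 1417645_at.

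No paired analysis was possible because the labels name no pairs of animals and do not say which were littermates. Signal over background limits Sgcd and the dim probe sets of Dmd and Sgce, and 3 arrays in each transgenic group limit all comparisons.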
